A study of Mus musculus with 13 samples.

Results

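The genes described here are 29 members of the type I interferon-stimulated gene set, taken by symbol from a deposited table of 25746 genes. All 29 were found in the table and all 29 passed the filter on low counts that left 16051 genes for testing. The transcripts were measured by bulk RNA sequencing of interfollicular keratinocytes, the cells of the epidermis outside the hair follicles, obtained by FACS from C57/BL6 mouse skin. All mice carried floxed alleles of Il12rb2, which encodes a subunit of the interleukin-12 receptor. Floxed control mice (Il12rb2fl/fl) had no Cre, and Il12rb2-deleted mice (K14Cre/+ Il12rb2fl/fl) carried a Cre driven by the promoter of keratin 14, a keratin of basal keratinocytes. Each genotype was left untreated (3 floxed control and 4 Il12rb2-deleted libraries) or given Aldara, a cream with 5% imiquimod, on the skin for 1 day (3 libraries each). Vehicle-treated skin and mice with Cre but no floxed alleles were not analysed here. The sources used here give no ages or sexes. Replicates are numbered in the labels but not tied to separate animals, so each p-value rests on the spread between libraries, part or all of which may be technical.

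Interferon-stimulated genes are a core part of the antiviral state. Type I interferons bind the receptor chains Ifnar1 and Ifnar2, the kinases Jak1 and Tyk2 phosphorylate transcription factors such as Stat2, and Stat2 acts with Irf9 in a complex that binds interferon-stimulated response elements in promoters. Several products of the induced genes are themselves parts of the pathway (Stat2, Irf9, Irf7), others detect viral RNA, block translation or degrade RNA, and Usp18 damps the receptor. Imiquimod is an agonist of Toll-like receptor 7, a sensor of single-stranded RNA in endosomes whose signal can lead to type I interferon production.

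Promoter sequences are shown first because the members are usually recognised by a shared element. RefSeq promoter windows (GRCm38.p6, 250 bases before to 50 after the annotated start) were found for 22 of the 29 members, in 25 windows. The core of the interferon-stimulated response element was searched as GAAA, 2 bases of any kind, GAAA, on both strands, with overlapping matches allowed. It was present in windows of 13 of the 22 members, and in 14 of the 25 windows, against 3.44% of all 32851 windows of the same length. The interferon-gamma-activated site, searched as TTC, 3 bases of any kind, GAA, was present for 3 of the 22 members (Oas1a, Bst2 and Ifit2), against 8.3% of all windows. These matches are letters in a window and were not tested as binding sites. The 150 bases before the start of 6 members follow, 5′ to 3′ on the strand of the gene, with the response element matches in capitals and overlapping matches run together:
Isg15, chr4:156200819-156200968, minus strand: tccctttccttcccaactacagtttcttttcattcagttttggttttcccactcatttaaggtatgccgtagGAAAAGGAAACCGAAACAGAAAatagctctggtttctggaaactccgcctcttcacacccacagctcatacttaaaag
Ifit1, chr19:34640739-34640888, plus strand: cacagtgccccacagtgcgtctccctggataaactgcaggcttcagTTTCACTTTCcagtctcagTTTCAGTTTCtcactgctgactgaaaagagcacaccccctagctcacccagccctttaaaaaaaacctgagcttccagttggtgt
Rsad2, chr12:26456453-26456602, minus strand: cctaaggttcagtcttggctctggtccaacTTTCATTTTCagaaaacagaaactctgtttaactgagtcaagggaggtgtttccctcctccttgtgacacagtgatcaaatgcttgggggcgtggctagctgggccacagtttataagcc
Oas1a, chr5:120907526-120907675, minus strand: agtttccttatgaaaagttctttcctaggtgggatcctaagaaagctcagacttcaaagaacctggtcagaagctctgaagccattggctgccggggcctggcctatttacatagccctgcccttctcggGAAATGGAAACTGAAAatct
Oas1g, chr5:120887614-120887763, minus strand: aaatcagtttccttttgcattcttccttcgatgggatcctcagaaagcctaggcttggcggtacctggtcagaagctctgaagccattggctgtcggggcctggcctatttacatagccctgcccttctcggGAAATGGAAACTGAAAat
Bst2, chr8:71537473-71537622, minus strand: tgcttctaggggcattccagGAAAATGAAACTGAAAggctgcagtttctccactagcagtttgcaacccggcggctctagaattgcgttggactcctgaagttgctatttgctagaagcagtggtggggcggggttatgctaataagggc
Isg15 holds 3 overlapping matches in 22 bases, 57 to 78 bases before its start. Oas1a and Oas1g, neighbouring copies of the 2′,5′-oligoadenylate synthetase gene, carry the same 16 capital bases, ending 5 and 3 bases before their starts. Of 148 aligned bases in their windows without gaps, 120 were identical. Ifit1 and Rsad2 carry the element on the other strand, so it reads there as TTTC, 2 bases, TTTC. No match was found in the windows of Cmpk2, Herc6, Ifi44, Ifit2, Irf7, Irf9, Oasl1, Oasl2 and Xaf1. Dhx58, Oas2, Usp18, Zbp1, Mx2, Rtp4 and Ifi27l2a had no window.

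**Figure D1:**
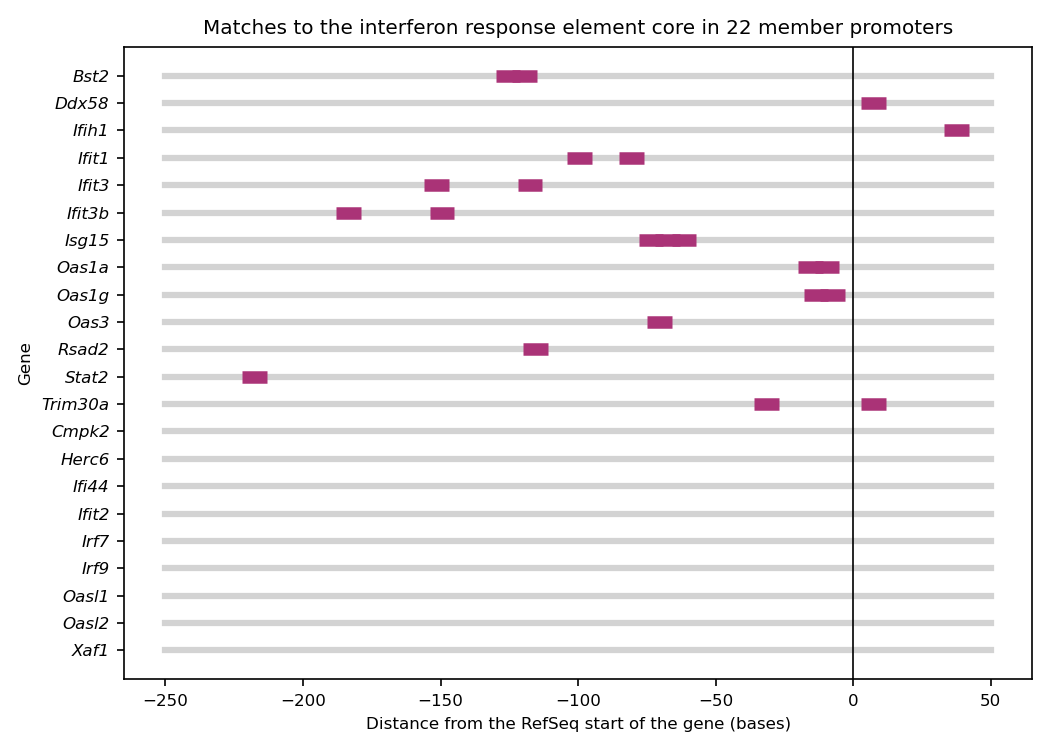
Position of each match to the response element core in the windows of 22 members, as the distance in bases from the RefSeq start of the gene, with the windows of a gene overlaid where it has more than 1. Grey bars are the windows and coloured blocks the matches. In all, 13 genes have at least 1 block.

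Several members lie in clusters on the GRCm38 assembly (GENCODE M21). The Ifit genes, whose products bind viral RNA, lie close together on chromosome 19. Ifit2 is at 34550694 to 34576419, Ifit3 at 34583531 to 34588731, Ifit3b at 34607970 to 34613401 and Ifit1 at 34640871 to 34650009. On chromosome 5 Oas2 starts at 120730333 and Oas1a ends at 120907521, with Oas3 and Oas1g between them, while Oasl2 and Oasl1 lie together from 114896936 to 114937915. Rsad2 (chromosome 12, 26442746 to 26456452, minus strand) neighbours Cmpk2 (26469204 to 26479837, plus strand). Isg15 is on chromosome 4 at 156199424 to 156200818, and Bst2 on chromosome 8 at 71534255 to 71537456. Mx2 is annotated as a polymorphic pseudogene in this release. Counts of close copies (Ifit3 with Ifit3b, Oas1a with Oas1g, and Trim30a with its relatives) are uncertain, since reads that fit more than 1 copy could be split or dropped, and the library method does not mark strand.

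Depth ranged from 5830034 to 22232478 counts per library. The floxed gene, Il12rb2, ranged from 17.1 to 78.8 CPM (depth-scaled counts, adjusted by TMM factors) in untreated floxed control libraries and from 8.52 to 25.6 CPM in untreated Il12rb2-deleted ones. Its range after Aldara was 1.98 to 8.14 CPM in floxed control and 0 to 1.64 CPM in Il12rb2-deleted libraries, and the count of 0 allows up to 0.307 CPM. The untreated genotypes overlapped, and counts over the whole gene check the deletion only in part, since the sources used here do not name the floxed exons. Keratinocyte markers summed to 12370 to 70350 CPM in every library. Gm10800, a predicted gene, took 14.17% of counts in replicate 2 of the untreated floxed control, 5.21% and 10.35% in replicates 1 and 2 of the untreated Il12rb2-deleted group, and at most 2.219% in the other 10 libraries.

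The members stood high in 1 untreated library of each genotype, low in the other 5 untreated libraries, and between these levels or near the top in all 6 Aldara libraries. Their summed level was 2480 CPM in floxed control untreated replicate 1, and 446 and 362 CPM in replicates 2 and 3. In Il12rb2-deleted untreated libraries it was 230, 1755, 174 and 192 CPM in replicates 1 to 4. After Aldara the sum was 1143, 1278 and 1870 CPM in floxed control and 1058, 1774 and 1114 CPM in Il12rb2-deleted libraries. Floxed control untreated replicate 1 was thus above every Aldara library, and Il12rb2-deleted untreated replicate 2 was above 4 of the 6. In bulk samples a larger share of responding cells and more RNA per cell cannot be told apart.

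**Figure D2:**
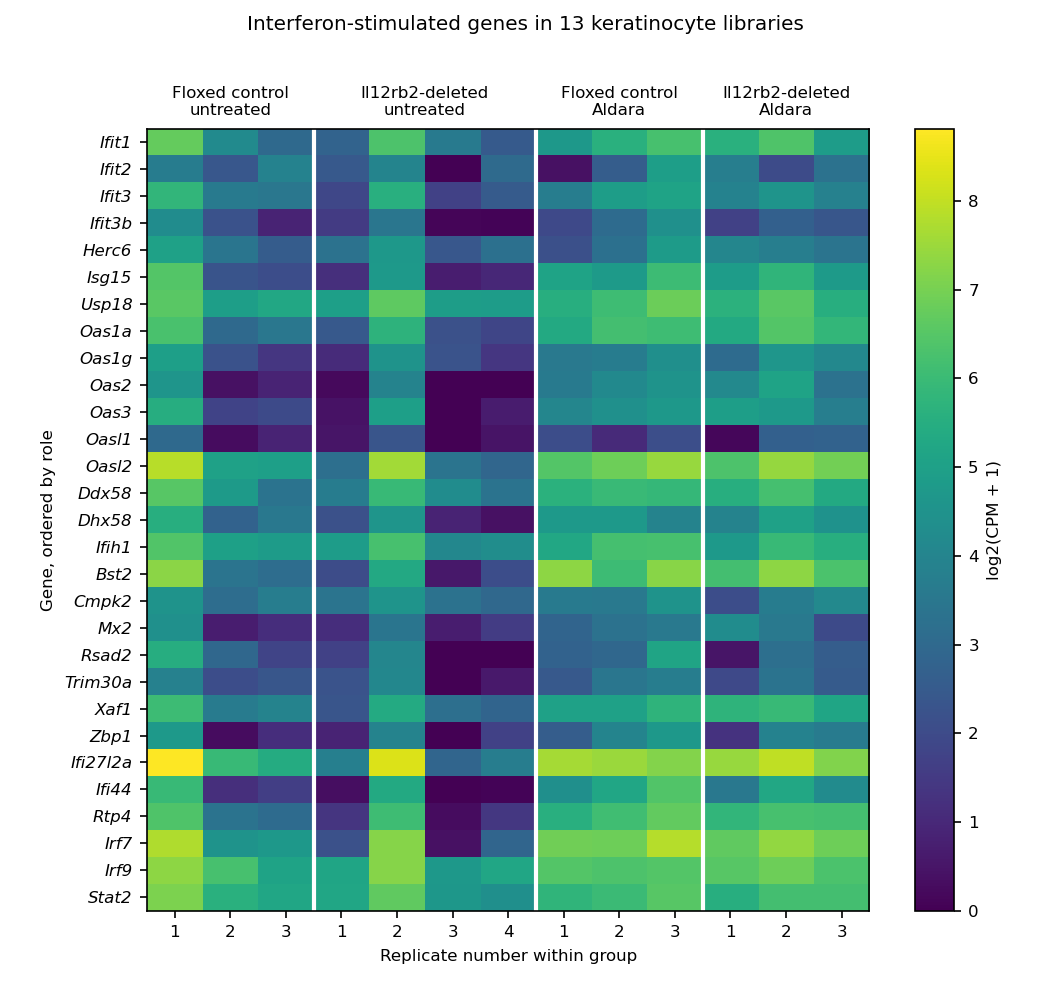
Level of each of the 29 members (vertical axis, grouped by role) in each of the 13 libraries (horizontal axis, replicate number within its group), coloured by log2(CPM + 1). Replicate 1 of the floxed control untreated group and replicate 2 of the Il12rb2-deleted untreated group are brighter than the rest of their groups, with summed levels of 2480 and 1755 CPM.

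These 2 libraries stood apart for nearly the whole set, and the tests of the members below are given with and without them. Floxed control untreated replicate 1 was the highest of its group for 28 of 29 members (29.2% of all tested genes), and at least 2-fold above the next library for 27 (4.52% of all genes). The exception was Ifit2, which was highest in replicate 3. Il12rb2-deleted untreated replicate 2 was the highest of its group for all 29 members (32.3% of all genes) and at least 2-fold above the next for 29 (9.26%). Both libraries were at least 2-fold above the highest of the other 5 untreated libraries for 26 of 29 members, against 105 of 16051 tested genes (0.654%). The members outside that count were Ifit2, Irf9 and Cmpk2. These shares describe the libraries, which were singled out by the members' own levels, and support nothing further.

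Of the ubiquitin-like modifier system, Isg15 encodes the modifier itself, which is conjugated to proteins in infected cells. Untreated floxed control replicates 1 to 3 gave 85.7, 3.95 and 3.20 CPM, and untreated Il12rb2-deleted replicates 1 to 4 gave 1.29, 25.6, 0.622 and 0.961 CPM. Aldara libraries held 33.7, 27.2 and 65.2 CPM (floxed control) and 28.3, 53.1 and 26.9 CPM (Il12rb2-deleted). Every Aldara library was above all Il12rb2-deleted untreated libraries, replicate 2 included, while floxed control untreated replicate 1 exceeded them all. Usp18, which removes Isg15 from proteins and restrains the interferon receptor, had a higher floor: 92.7, 29.9 and 37.6 CPM in floxed control untreated and 30.7, 98.03, 29 and 28.3 CPM in Il12rb2-deleted untreated libraries. After Aldara it gave 44.9, 66.1 and 113 CPM in floxed control and 49.9, 94.2 and 45.4 CPM in Il12rb2-deleted libraries. All 6 Aldara values of Usp18 thus lay above the 5 lower untreated ones. Herc6, a ligase of the same system, ranged from 4.28 to 9.70 CPM in those 5 libraries and from 3.45 to 27.7 CPM after Aldara, so its ranges overlapped.

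Among the genes of the IFIT family, Ifit1, which binds RNA lacking host cap methylation, gave 106, 17.8 and 7.12 CPM without treatment in floxed control and 6.00, 80.2, 11.4 and 4.68 CPM in Il12rb2-deleted libraries. With Aldara the values were 25.0, 47.5 and 75.1 CPM in floxed control and 47.7, 82.9 and 28.3 CPM in Il12rb2-deleted mice. The lowest Aldara library was thus above the highest of the 5 lower untreated ones. Ifit3 was read at 54.2, 11.3 and 10.2 CPM and at 2.66, 46.5, 2.26 and 4.80 CPM in the untreated groups, and from 12.3 to 33.6 CPM over the 6 Aldara libraries. Its Aldara range lay above the lower untreated libraries by a narrow margin and below both high ones. Ifit3b was lower, at 0.0641 to 3.63 CPM in the 5 lower untreated libraries and 2.25 to 20.6 CPM after Aldara, and these ranges overlapped. Ifit2 did not share the pattern: it ranged from 0 to 14.1 CPM in the 5 lower untreated libraries and from 0.319 to 29.4 CPM after Aldara.

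The oligoadenylate synthetases make the messenger that activates RNase L, and the OAS-like proteins are related by sequence. Oasl2 was the most abundant of the 6 by CPM, at 230, 32.0 and 30.7 CPM in floxed control untreated and 8.31, 193, 9.57 and 6.47 CPM in Il12rb2-deleted untreated libraries. It gave 85.8, 117 and 176 CPM in floxed control Aldara and 80.7, 171 and 122 CPM in Il12rb2-deleted Aldara libraries. Of all untreated libraries only the 2 high ones reached the Aldara range. Oas1a ranged from 2.63 to 10.3 CPM in the 5 lower untreated libraries, stood at 77.7 and 50.9 CPM in the 2 high ones, and ranged from 39.6 to 87.7 CPM after Aldara. Oas2 and Oas3 were near the detection limit in several untreated libraries (0 to 0.857 and 0 to 2.98 CPM in the 5 lower), and ranged from 8.96 to 33.5 CPM and from 12.6 to 29.97 CPM after Aldara. A count of 0 allows up to 0.233 CPM in Il12rb2-deleted untreated replicate 3, where 8 of the 29 members had no count, and up to 0.192 CPM in replicate 4, where 2 had none. Oas1g ranged from 1.11 to 3.81 CPM in the 5 lower libraries against 7.37 to 23.6 CPM after Aldara, and Oasl1 from 0 to 0.857 against 0.102 to 5.75 CPM.

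Of the transcription factors, Irf7, which amplifies type I interferon transcription, gave 214, 21.96 and 25.1 CPM in the floxed control untreated group and 3.60, 148, 0.311 and 6.28 CPM in Il12rb2-deleted untreated libraries. It gave 118, 115 and 225 CPM in floxed control Aldara and 100, 165 and 116 CPM in Il12rb2-deleted Aldara libraries. Its lowest Aldara value, 100 CPM, was above the highest of the 5 lower untreated libraries, 25.1 CPM. Stat2 was expressed in every library, at 134, 47.9 and 36.1 CPM in floxed control untreated, 36.3, 100, 24.3 and 19.7 CPM in Il12rb2-deleted untreated, 52.9, 63.7 and 92.0 CPM in floxed control Aldara and 45.4, 70.6 and 71.5 CPM in Il12rb2-deleted Aldara libraries. Floxed control untreated replicate 2, at 47.9 CPM, lay above the lowest Aldara library. Irf9, the DNA-binding partner of Stat2, ranged from 24.9 to 75.6 CPM in the 5 lower untreated libraries and from 78.5 to 117 CPM after Aldara, below the 159 and 146 CPM of the high pair.

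**Figure D3:**
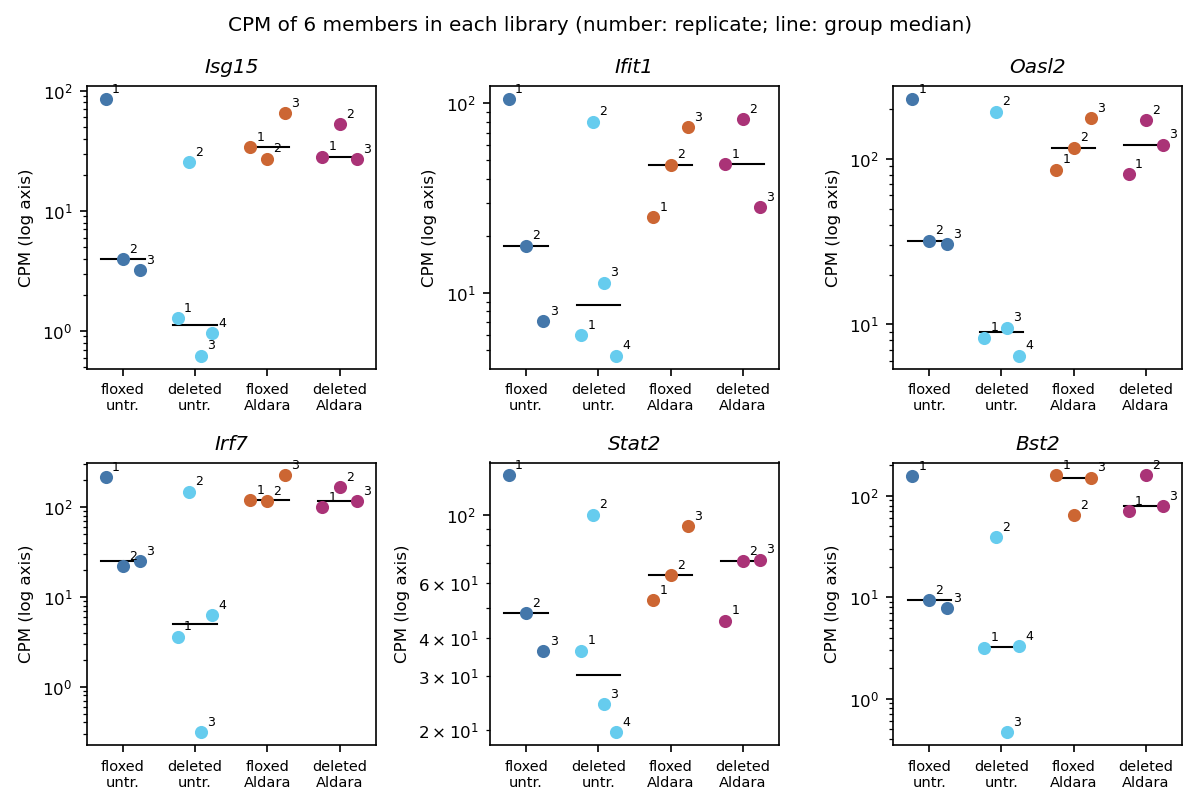
CPM (log axis) of 6 members in each library by group, with the replicate number beside each point and a line at the group median. In each panel replicate 1 of the floxed control untreated group and replicate 2 of the Il12rb2-deleted untreated group lie apart from their groups, as for Isg15 at 85.7 and 25.6 CPM.

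The RNA sensors of the set were present in every library. Ifih1, which encodes the long double-stranded RNA sensor MDA5, gave 85.5, 31.6 and 27.3 CPM in the floxed control untreated group and 28.2, 75.9, 15.7 and 18.9 CPM in Il12rb2-deleted untreated libraries. After Aldara it ranged from 38.2 to 75.1 CPM in floxed control and from 25.6 to 60.0 CPM in Il12rb2-deleted libraries, so the 5 lower untreated libraries and the Aldara libraries overlapped. Ddx58, which encodes RIG-I, ranged from 9.22 to 26.8 CPM in those 5 libraries and from 39.5 to 72.9 CPM after Aldara. Dhx58, which encodes the related protein LGP2, ranged from 0.320 to 10.6 against 14.2 to 31.9 CPM.

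Among the other effectors, Bst2 encodes tetherin, which holds budding virus at the cell surface. It gave 156, 9.38 and 7.80 CPM in the floxed control untreated group, and 3.17, 38.8, 0.467 and 3.27 CPM in Il12rb2-deleted untreated libraries. The floxed control Aldara libraries held 159, 64.4 and 151 CPM, and the Il12rb2-deleted Aldara libraries 70.7, 159 and 78.5 CPM. For Bst2, as for Isg15, the high Il12rb2-deleted untreated library was below every Aldara library. Rsad2 encodes viperin, which makes a chain-terminating nucleotide, and gave 44.0, 6.72 and 2.48 CPM in the floxed control untreated group and 2.23, 15.5, 0 and 0 CPM in Il12rb2-deleted untreated libraries. After Aldara it gave 5.75, 6.74 and 34.1 CPM in floxed control and 0.409, 8.21 and 5.13 CPM in Il12rb2-deleted libraries, values that overlapped those of the lower untreated libraries. Zbp1, a sensor of Z-form nucleic acid, overlapped too, at 25.9, 0.213 and 1.22 CPM and 0.857, 14.5, 0 and 2.24 CPM in the untreated groups and 1.43 to 24.8 CPM after Aldara. Xaf1 ranged from 4.03 to 14.2 CPM in the 5 lower untreated libraries and from 31.9 to 60.5 CPM after Aldara, without overlap. Mx2 did not overlap either, at 0.622 to 1.99 against 2.94 to 18.6 CPM. Overlap was seen for Cmpk2, a nucleotide kinase, at 6.85 to 12.2 against 3.27 to 21.8 CPM, and for Trim30a at 0 to 4.15 against 2.86 to 12.2 CPM.

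The remaining members are less well defined in function. Ifi27l2a reached the highest level of any member in the 2 high untreated libraries, with 449, 60.3 and 41.6 CPM in floxed control untreated, 13.03, 322, 6.38 and 12.4 CPM in Il12rb2-deleted untreated and 140 to 249.1 CPM in the Aldara libraries. Rtp4 ranged from 0.233 to 9.17 CPM in the 5 lower untreated libraries and from 46.6 to 103 CPM after Aldara, and Ifi44 from 0 to 2.07 against 10.6 to 84.8 CPM. Over the whole set, the 6 Aldara libraries were all above the 5 lower untreated libraries for 19 of 29 members, against 8.32% of tested genes. The 5 libraries are those left after the 2 highest in these same members were set aside, which favours the members in this count, so it supports nothing further.

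As a share of the summed CPM of the 29 members, Ifi27l2a was 18.1% and 18.3% in the 2 high untreated libraries and 7.73% to 17.0% after Aldara. Oas1a was 3.13% and 2.90% against 3.51% to 5.54%, Irf7 8.62% and 8.44% against 9.03% to 12%, and Rtp4 3.32% and 3.78% against 4.07% to 6.44%. These 4 were the only members whose share in the 6 Aldara libraries lay wholly on 1 side of both high untreated libraries. They were chosen after their values were seen, the shares of the 29 depend on each other, and no difference in makeup was tested. Per kilobase of exon, the highest median levels after Aldara were those of Ifi27l2a (381 CPM per kilobase), Bst2 (127) and Isg15 (41.0), and the lowest those of Oasl1 (1.26) and Herc6 (1.19). Isg15 (35.6 to 86.3 CPM per kilobase), Rtp4 (21.8 to 48.5), Oas1a (21 to 46.5) and Irf7 (26.5 to 59.6) overlapped each other in their ranges over the Aldara libraries.

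No member passed edgeR's test for Aldara in either genotype, at an adjusted p under 0.05 over all 16051 genes. In floxed control mice the Aldara difference (log2 fold change, Aldara minus untreated) had a median of 0.35 over the members, from -0.21 to 1.15, against -0.13 over all genes, and 22 of 29 members were above 0. The comparison called 7.05% of all genes. No member had an unadjusted p under 0.05, against 21.3% of all genes. DESeq2 and limma voom also called 0 members, with 8.8% of 24352 genes and 12.6% of 16051 genes called. DESeq2 gave no adjusted p for at least Isg15, Irf7 and Bst2 here, so it could not call them. The groups did not overlap, with Aldara higher, for 0 members against 13.1% of all genes. In Il12rb2-deleted mice the median was 1.11, from -0.16 to 3.26, against -0.09 over all genes, and 28 of 29 members were above 0. There 15.5% of all genes were called and 0 members, with 3 members at an unadjusted p under 0.05 against 28.5% of all genes. DESeq2 called 0 members, with 14.8% of 24352 genes, and limma voom with quality weights called 12, with 24.3% of all genes. The 2 members whose groups did not overlap, with Aldara higher, were Isg15 and Bst2, against 14.2% of all genes. Averaged over both genotypes the median was 0.74 and the smallest adjusted p 0.0633, with 24.9% of all genes and 0 members called, 2 at an unadjusted p under 0.05 against 35.6% of all genes. DESeq2 called 0 members, with 20.3% of 24352 genes, and limma voom 12 with 33% of all genes.

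The standard errors of the single members were large beside their differences. Isg15 differed by 0.44 (SE 1.22) in floxed control and 2.46 (SE 1.19, edgeR adjusted p = 0.191) in Il12rb2-deleted libraries. Bst2 differed by 1.11 (SE 1.16) and by 3.26 (SE 1.14, edgeR adjusted p = 0.0657), and Irf7 by 0.82 (SE 1.28) and 1.72 (SE 1.20). Oasl2 differed by 0.37 (SE 1.07) and 1.22 (SE 1.00), Ifit1 by 0.18 (SE 0.99) and 1.09 (SE 0.93), and Zbp1 by 0.70 (SE 1.48) and 1.11 (SE 1.40). The members with a higher untreated floor had smaller standard errors: Usp18 at 0.49 (SE 0.54) and 0.45 (SE 0.50), Ifih1 at 0.38 (SE 0.56) and 0.34 (SE 0.53), and Stat2 at -0.06 (SE 0.55) and 0.48 (SE 0.52). Ifit3 (-0.02, SE 0.95, and 0.30, SE 0.90) and Rsad2 (-0.19, SE 1.53, and 0.14, SE 1.47) were near 0 in both genotypes. The median standard error was 1.14 over the members in floxed control, against 0.50 over all genes, and 1.06 against 0.47 in Il12rb2-deleted mice.

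**Figure D4:**
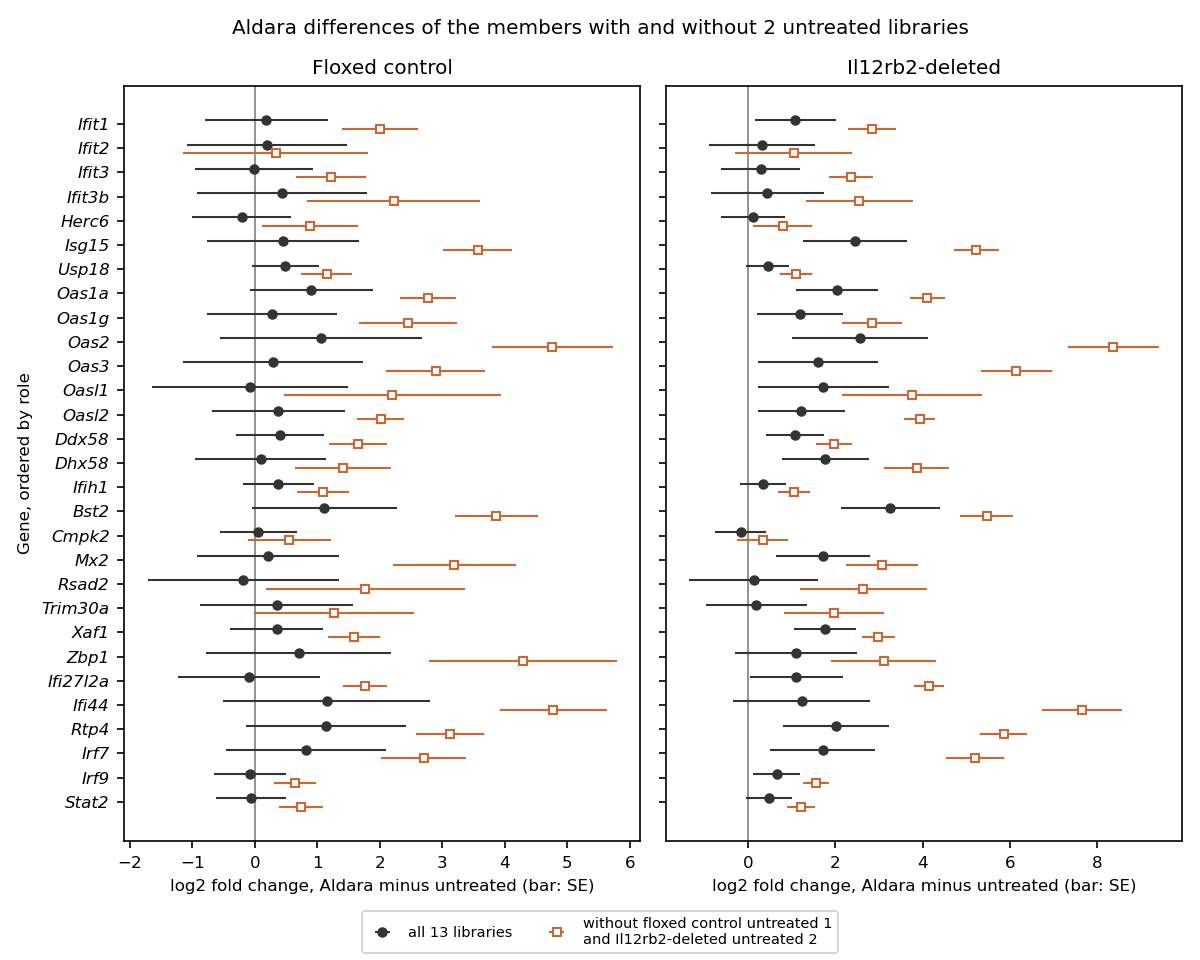
Aldara difference of each member in log2 with its standard error (horizontal axis) in floxed control (left) and Il12rb2-deleted (right) libraries, fitted with all 13 libraries (filled circles) and without the 2 high untreated libraries (open squares). The squares lie to the right of the circles, with medians of 1.996 and 2.99 against 0.35 and 1.11.

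Leaving out a single untreated library moved these values. Without Il12rb2-deleted untreated replicate 2, 16 members were called, all higher after Aldara, in Il12rb2-deleted mice (median 3.00, 15% of all genes called), and 13 over both genotypes (24.4% of all genes). Without floxed control untreated replicate 1, the floxed control median was 1.998, with 29 of 29 members above 0, 9 at an unadjusted p under 0.05 (19.1% of all genes) and 0 called; 7 were called over both genotypes, near the share of 20.8% of all genes, and 1, Bst2, in Il12rb2-deleted mice, where 13.1% of all genes were called. Without both, a choice made after the members' levels were seen and so no independent support, edgeR called 11 members higher in floxed control (3.48% of all genes called higher), 19 in Il12rb2-deleted mice (6.53%) and 22 over both genotypes (11.2%), and 0 lower. Isg15, Oas1a, Oas2, Oas3, Oasl2, Irf7, Ifi44, Bst2, Xaf1, Rtp4 and Ifi27l2a made up the 11 in floxed control. Leaving out the 3 libraries high in Gm10800 was another choice made after the data were seen. By edgeR 0 members were then called in floxed control (1.7% of all genes), 14 in Il12rb2-deleted mice (9.24%) and 12 over both genotypes (16.5%). These 3 libraries include Il12rb2-deleted untreated replicate 2 and leave in floxed control untreated replicate 1. The counts are thus not separate from those above, and the part of Gm10800 was not tested. Without floxed control untreated replicate 2 or 3 the floxed control median was -0.07 or -0.10. The sign of that median thus changed with the untreated library left out.

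Deletion of Il12rb2 gave no member call. Between untreated genotypes (Il12rb2-deleted minus floxed control) all 29 differences were below 0, with a median of -1.07 (-2.43 to -0.21) against -0.05 over all genes. The smallest adjusted p was 1, 0 members were called, 1 had an unadjusted p under 0.05 against 3.73% of all genes, and 0% of all genes were called; DESeq2 and limma voom called 0 members. The size and sign of the median changed with single libraries: without floxed control untreated replicate 1 the median was 0.68 and 26 of 29 members were above 0, while without Il12rb2-deleted untreated replicate 2 it was -3.11, with 22 members at an unadjusted p under 0.05 (6.86% of all genes) and 0 called. Among the 5 lower untreated libraries the floxed control pair stood above the 3 Il12rb2-deleted libraries for 14 of 29 members, against 12.5% of tested genes, and below them for 0, against 9.53%. Oasl2 was one of the 14, at 32.0 and 30.7 against 8.31, 9.57 and 6.47 CPM. With both high libraries left out the median was -1.31, 27 of 29 members were below 0, 14 had an unadjusted p under 0.05 against 4.05% of all genes, and 0 members were called, with a smallest adjusted p of 0.168. The choice of libraries was made from these same members, so this too supports nothing further. After Aldara the genotypes overlapped for every member. The median deletion difference was -0.10 (-1.75 to 0.57), and 11 of 29 members were above 0. By edgeR 0 members and 0% of all genes were called, and 0 members had an unadjusted p under 0.05 against 4.3% of all genes. DESeq2 and limma voom called 0 members. Without floxed control Aldara replicate 3 that median was 0.14, and by limma voom it was 0.16, with 22 of 29 members above 0.

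The interaction, the Aldara difference in Il12rb2-deleted minus that in floxed control mice, tests whether the genotypes differed in their response. Its median over the members was 0.85 (-0.21 to 2.15) against 0.01 over all genes, and 25 of 29 were above 0. By edgeR 0 members and 0% of all genes were called, and 0 members had an unadjusted p under 0.05 against 3.36% of all genes. DESeq2 and limma voom called 0 members. The median was -0.79 without floxed control untreated replicate 1 and 2.67 without Il12rb2-deleted untreated replicate 2. Without both it was 0.93, with 23 of 29 members above 0, 11 at an unadjusted p under 0.05 against 3.19% of all genes, and 0 called. Both libraries were chosen from the levels of these same members, so these counts support nothing further. The interaction shares its untreated libraries with the comparisons above.

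The members followed each other across libraries, as a description of libraries that share their depth and sorting. Over 13 libraries the Pearson correlation of a member's log2 CPM with the mean of the other members had a median of 0.92, from 0.47 for Ifit2 to 0.98 for Ifi44. Within the 7 untreated libraries the median was 0.94, and within the 6 Aldara libraries 0.81. Without the 2 high untreated libraries it was 0.899 over the other 11. Oasl2 (0.97), Ifi44 (0.94) and Usp18 (0.93) were among those that kept the order of the others within the Aldara libraries, while Ifi27l2a (-0.02), Dhx58 (0.02) and Mx2 (0.04) did not. Of 11904 genes outside the set, the 10 most like its mean over the 13 libraries were Ddx60 (r = 0.963), Apol9a (0.959), Lgals9 (0.958), Apol9b (0.955), Irgm1 (0.951), Uba7 (0.948), Dtx3l (0.946), Parp9 (0.935), Ube2l6 (0.929) and Igtp (0.928). Uba7 and Ube2l6 encode the activating and conjugating enzymes for Isg15. Ddx60 was read at 61.5 and 37.4 CPM in the 2 high untreated libraries, 2.49 to 7.14 CPM in the other 5 and 7.37 to 58.3 CPM after Aldara.

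The genes upstream of the set were described in the same libraries. Of 18 type I interferon genes, 7 had no count in any library and 1, Ifnk, was tested; their summed level was 0.0487 to 2.33 CPM in any library, with 0.295 and 0.990 CPM in the 2 high untreated libraries. Interferon-gamma and the 2 type III interferon genes summed to at most 0.686 CPM. Tlr7, the receptor for imiquimod, was read at 0 to 1.46 CPM and did not pass the filter. The 10 receptor and kinase genes summed to 786 to 990 CPM in untreated and 502 to 829 CPM in Aldara libraries. Over both genotypes, where 24.9% of all genes were called, 3 of the 10 fell after Aldara and none rose, which is near that share: Jak1 by 0.70 on the log2 scale (edgeR adjusted p = 0.00265), Ifngr1 by 1.22 (0.0146) and Ifnlr1 by 1.04 (0.0404), although Ifnlr1 was not called without the 2 high untreated libraries (edgeR adjusted p = 0.0582). Of 17 tested sensors and adaptors, also near the share over all genes, 3 fell and 1 rose: the kinase Ikbke fell by 2.12, Irf5 fell by 0.89 and Traf6 fell by 0.75, and Irak1 rose by 0.80 (edgeR adjusted p from 0.000173 to 0.0271). Traf6 was not called without the 2 high libraries (edgeR adjusted p = 0.0672). The 20 sensor and adaptor genes summed to 620 and 613 CPM in those 2 libraries, below the 687 to 798 CPM of the other 5 untreated ones. Neither type I receptor chain was called, and Ifnar1 ranged from 31.2 to 55.2 CPM in untreated and 23.4 to 46.2 CPM in Aldara libraries.

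Among 8 feedback inhibitors of cytokine signalling, Dusp1 fell by 2.11 (SE 0.37), Socs3 fell by 1.99 (SE 0.35) and Pias1 fell by 0.69 over both genotypes, and Trim27 rose by 1.02 (SE 0.19, edgeR adjusted p from 0.000727 to 0.0364). Dusp1 is also an immediate early gene. Pias1 was not called without the 2 high libraries (edgeR adjusted p = 0.0755). In the 2 high untreated libraries the 8 genes summed to 1227 and 2016 CPM, below the 2672 to 3127 CPM of the other 5. Most of these untreated sums was Dusp1 (606 and 1162 against 1547 to 2064 CPM) and Socs3 (313 and 513 against 657 to 986 CPM). No other gene of the list was below the other 5 in both high libraries, and Ptpn11 was above them (87.2 and 102 against 60.4 to 83.1 CPM). The Aldara libraries held 598 to 1383 CPM for the list. Of 46 further interferon-stimulated genes tested, 3 rose and 1 fell over both genotypes, fewer than the share over all genes. Without the 2 high untreated libraries 19 rose and 1 fell, against 11.2% of all genes called higher and 20.7% called either way. Those 2 libraries were set aside for high levels of interferon-stimulated genes, so this count supports nothing further. With all 13 libraries Lgals3bp rose by 2.10 (edgeR adjusted p = 0.0242) and Ifitm3, which blocks viral entry, by 1.01. Pnpt1 rose by 0.98 and Oas1f fell by 2.93 (SE 0.40). Oas1f thus moved away from its relatives among the members: it was read at 63.2 and 90.7 CPM in the 2 high untreated, 125 to 182 CPM in the other untreated and 2.81 to 25.8 CPM in the Aldara libraries. The sum of this list was 3735 and 3072 CPM in the 2 high untreated, 1042 to 1419 CPM in the other untreated and 2873 to 3832 CPM in the Aldara libraries. The 2-fold mark was met in both high libraries by 13 of the 46, against 0.654% of all tested genes. It rests on the same choice of libraries.

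Of 14 interferon-gamma targets 1 was at least 2-fold up in both high untreated libraries, against 0.654% of all tested genes. The sum of the 14 was 1491 and 1355 CPM there, 781 to 1166 CPM in the other 5 and 687 to 1315 CPM after Aldara. Of the 14, 0 rose and 1 fell over both genotypes, where 24.9% of all genes were called. The 1 was Irf1, which fell by 1.64 (edgeR adjusted p = 0.00877). Without the 2 high untreated libraries 3 rose and 1 fell, against 11.2% of all genes called higher. That choice of libraries was made after the members' levels were seen. In single genotypes Cxcl10 fell by 1.54 in floxed control (edgeR adjusted p = 0.0482, and 0.0614 without the 2 high libraries) and Cxcl9 rose by 2.24 in Il12rb2-deleted mice (edgeR adjusted p = 0.0444); the difference between the genotypes was not called for any gene of these lists. No list gene was called for the deletion in either treatment.

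**Figure D5:**
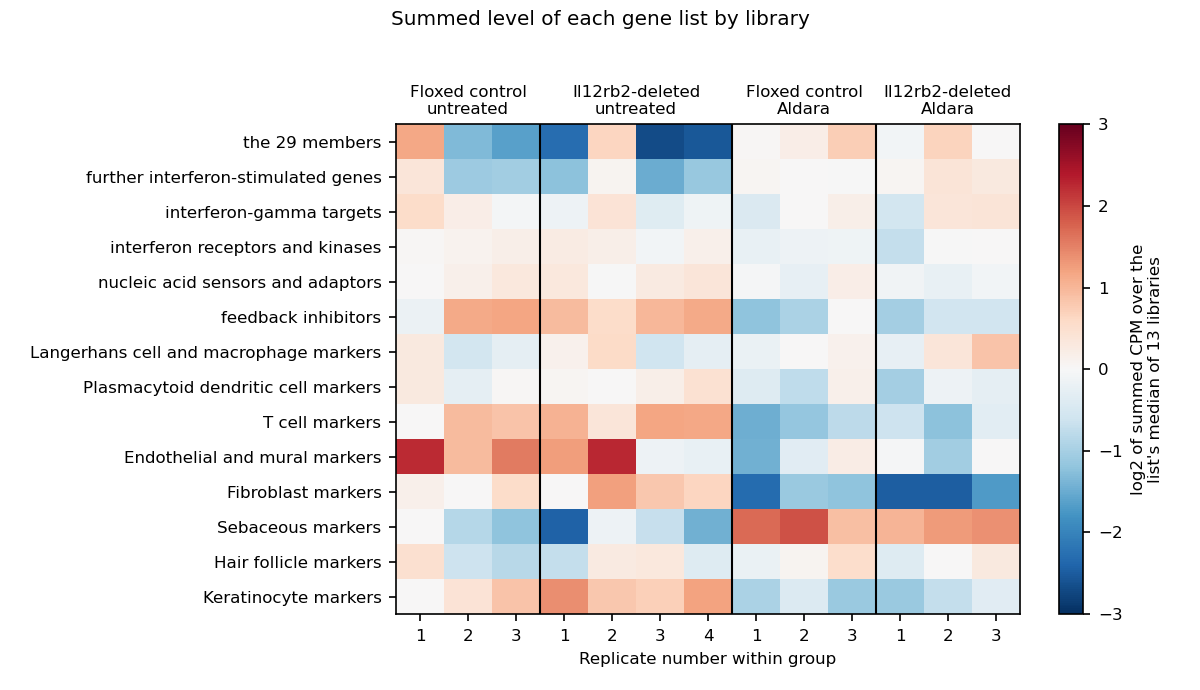
Summed CPM of the 29 members, of 5 related gene lists and of 8 marker lists in each library, as log2 of the ratio to the list's median over the 13 libraries. The members are low in the 5 lower untreated libraries. Sums of further interferon-stimulated genes, interferon-gamma targets and Langerhans cell and macrophage markers are higher in the high pair than in those 5. So are the endothelial and mural and the sebaceous sums. Sums of sensors and adaptors, feedback inhibitors and T cell markers are lower in the pair than in those 5. The feedback inhibitor sum is mostly Dusp1 and Socs3 in untreated libraries. Sebaceous sums are high in all Aldara libraries (3993 to 7988 CPM).

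Markers of other cells moved with the 2 high untreated libraries in part. Endothelial and mural markers summed to 232 and 237 CPM there, 42.3 to 146 CPM in the other 5 and 18.2 to 58.1 CPM after Aldara, although 0 of 8 met the 2-fold mark. Langerhans cell and macrophage markers summed to 728 and 881 CPM against 392 to 645 CPM, and 1 of 12, Cd74, which is also induced by interferon-gamma, met the mark. This sum was mostly Epcam, which overlapped (441 and 541 against 247 to 556 CPM), and Cd74 (209 and 237 against 20.6 to 93.4 CPM). H2-Aa was also higher in the pair (56.2 and 44.6 against 13.4 to 31.7 CPM). Cd207, the defining marker of Langerhans cells, was at 0 and 0.792 CPM in the high pair and up to 4.48 CPM elsewhere, and Ptprc, present on all leukocytes, at 0.368 and 7.72 CPM against 0 to 10.6 CPM in the other 5. Of the plasmacytoid dendritic cell markers Siglech was at 0.368 and 2.57 CPM against 0 to 3.09 CPM in the other 5, and the list's sum (1944 and 1582 CPM, mostly Ly6d, which keratinocytes also express) lay within that of the other 5 (1306 to 2183 CPM). Sebaceous markers summed to 2140 and 1939 CPM against 397 to 1334 CPM, and T cell markers to 21.4 and 27.7 CPM against 38.8 to 49.0 CPM. Hair follicle markers summed to 5575 and 4827 CPM against 2273 to 4978 CPM. Most of this was Krt79, higher in the pair (3144 and 2303 against 483 to 1737 CPM), and Krt17, which overlapped (2253 and 2331 against 1049 to 3112 CPM). Sox9 (136 and 135.5 against 60 to 86.7 CPM) and Lhx2 (5.52 and 3.76 against 0.192 to 3.56 CPM) were higher in the pair. Krt75, Lgr5 and Cd34 overlapped. Fibroblast markers summed to 1052 and 2236 CPM against 948 to 1656 CPM, neutrophil markers to 3.90 and 5.55 CPM against 1.89 to 32.1 CPM, and melanocyte markers to 235 and 84.0 CPM against 26.6 to 195 CPM. Keratinocyte markers summed to 26900 and 46760 CPM in the high pair against 35470 to 70350 CPM in the other 5. Il12rb2 was at 17.1 and 8.52 CPM in the pair, the lowest value of each untreated group. Gm10800 was high in only 1 of the pair, at 0.361% and 10.35% of counts. The part of these markers and genes in the member levels was not tested.

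The marker lists also differed with Aldara. Over both genotypes sebaceous markers were higher, at 3993 to 7988 CPM, and keratinocyte and fibroblast markers lower, at 12370 to 21270 CPM and 171 to 441 CPM, than in all untreated libraries (397 to 2140, 26900 to 70350 and 948 to 2236 CPM). Neutrophil markers reached 18.8 to 183 CPM after Aldara, mostly S100a8 (13.9 to 141 CPM) and S100a9 (2.24 to 37.8 CPM). The neutrophil gene Ly6g was at most 0.116 CPM there, and T cell markers were at 7.79 to 17.1 CPM. The part of these marker lists in the Aldara differences of the members was not tested.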

How the data were processed

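Per the labels' protocols, total RNA of sorted keratinocytes was made into Smart-seq2 libraries, which carry neither strand nor molecular identifiers, and sequenced as single-end reads of 100 bases. The authors deposited unnormalized counts of reads for each Ensembl gene. The tools named per the submitters' processing notes are STAR and featureCounts (Subread), with build GRCm38 and no versions.

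The 13 libraries were grouped by genotype and treatment. Genes were kept with edgeR's filterByExpr (minimum count 10), scaled by TMM and fitted with 1 coefficient per group (edgeR 4.0.16, R 4.3.3). For 6 contrasts the quasi-likelihood F test was run on 16051 genes, with Benjamini-Hochberg adjustment over all of them and calls at an adjusted p under 0.05. Standard errors came from dividing each log2 difference by the root of its F. Log2 CPM used a prior count of 2. Counts of 0 were given a limit of 3 counts, which covers counting error only.

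The members and the 17 other gene lists (213 of 214 genes found) were chosen with earlier results of these data known. Every member is given its levels; fold changes are given for Isg15, Usp18, Ifit1, Ifit3, Oasl2, Rsad2, Irf7, Stat2, Ifih1, Bst2 and Zbp1 in the Aldara comparisons, and for pathway list genes that were called over both genotypes or are named in 1. Marker lists are given as counts and summed levels. The genes most like the members were ranked by Pearson's r among genes whose mean log2 CPM was 1 or more.

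Alternatives were RLE and upper quartile scaling, no filter, a minimum count of 30, DESeq2 1.42.0, limma voom (3.58.1) with quality weights, the replicate number as a block, only the groups compared, and each library left out. Leaving out the 2 untreated libraries high in the members, or 3 high in Gm10800, was added after the data were seen. Simulated counts were used to test the steps. Symbols came from the deposited table, coordinates and exonic lengths from GENCODE M21, and promoters from RefSeq. The values of 1 listed gene are not reported here.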

Additional observations from a re-analysis of the deposited data

Results flagged for a closer look

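In untreated Il12rb2-deleted mice, replicate 2 was a sample far from the other 3 for 22 of the 29 members by Dixon's ratio, which was 0.838 to 0.994 and past the 95% critical value; chance gives this in about 1 group in 20, and the members are not independent of each other. The set was described because this library was known to stand high in it, so the ratios restate that choice and are no separate evidence. Its values were 25.55 CPM for Isg15, 98.03 CPM for Usp18, 80.2 CPM for Ifit1, 46.54 CPM for Ifit3 and 9.704 CPM for Mx2. For the OAS family they were 50.9 CPM for Oas1a, 21.78 CPM for Oas1g, 14.26 CPM for Oas2, 30.5 CPM for Oas3, 3.961 CPM for Oasl1 and 192.7 CPM for Oasl2. The transcription factors Irf7 and Irf9 were at 148.1 and 146.1 CPM, and the sensor Dhx58 at 22.97 CPM. Rsad2 stood at 15.45 CPM, Bst2 at 38.81 CPM, Xaf1 at 41.19 CPM, Cmpk2 at 22.77 CPM and Zbp1 at 14.46 CPM. Ifi44 stood at 39.61 CPM, Rtp4 at 66.34 CPM and Ifi27l2a at 321.8 CPM. The summed level of the members there, 1754.6 CPM, was far from the other 3 as well. The other groups have 3 libraries and were not examined this way, so floxed control untreated replicate 1 has no such value.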

How the results depend on the processing

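No member was called by edgeR with TMM, RLE or upper quartile scaling, or with a minimum count of 30. None was called with the groups compared alone or by DESeq2 either. This held in each of the 6 comparisons where each could be run. For Aldara these settings called 5.95% to 9.75% of all genes in floxed control, 14.8% to 20.6% in Il12rb2-deleted mice and 20.3% to 31.1% over both. DESeq2 gave no adjusted p for at least Isg15, Irf7 and Bst2 for Aldara in floxed control, so its count there leaves them out. Limma voom with quality weights called 12 members for Aldara in Il12rb2-deleted mice and 12 over both genotypes, with 24.3% and 33% of all genes. Without a filter edgeR called 3 (Oas1a, Bst2 and Xaf1) and 2 (Oas1a and Bst2), with 9.22% and 14.7% of all genes. The cause was not tested. With 1 library left out, the count ran from 0 to 16 in Il12rb2-deleted mice and from 0 to 13 over both genotypes, highest without Il12rb2-deleted untreated replicate 2. Without the 2 high untreated libraries it was 11 in floxed control and 19 in Il12rb2-deleted mice (3.48% and 6.53% of all genes called higher). Over both genotypes it was 22 (11.2%). Without the 3 libraries high in Gm10800 it was 0, 14 and 12 (9.24% and 16.5% of all genes for the last pair). The median log2 fold change was then 3.93 for Aldara in Il12rb2-deleted mice, -3.78 for the untreated deletion difference and 3.83 for the interaction. These 3 libraries include Il12rb2-deleted untreated replicate 2, and leaving out that library alone gave medians of 3.00, -3.11 and 2.67.

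In the Aldara comparisons of 11 single members, 226 of 253 recomputed values in floxed control and 222 of 253 in Il12rb2-deleted mice kept their direction and their side of the threshold. These include fits without a library of the other genotype, which hardly moved the member medians. None of the 11 was called in the main fit, so keeping their side of the threshold meant staying uncalled. In floxed control the range with 1 library left out was -0.12 to 3.57 for Isg15, -0.34 to 1.998 for Ifit1, -0.41 to 1.21 for Ifit3, -0.073 to 2.01 for Oasl2, -1.51 to 1.77 for Rsad2 and -0.40 to 0.73 for Stat2. The high values came without floxed control untreated replicate 1. In Il12rb2-deleted mice it was -0.069 to 2.37 for Ifit3 and -0.58 to 2.66 for Rsad2. Other floxed control values that changed sign were 0.0034 for Ifit3 without a filter, -0.067 for Ifit1 by limma voom, 1.21, 1.77 and 0.73 for Ifit3, Rsad2 and Stat2 without the 2 high libraries, and -0.045, -0.16 and -0.018 for Isg15, Ifit1 and Oasl2 without the 3 libraries high in Gm10800.

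Whether the replicate numbers pair the libraries was not settled. Over 18 pairs with the same number the correlation of deviations from the group means was -0.16 to 0.42, over 0.1 in 6. It was highest between the untreated groups, at 0.42 for replicates 2 and 0.30 for replicates 3. Pairs with unlike numbers were not compared. With the number as a replicate block edgeR called 0 members in every comparison. For Aldara it called 5.18% of all genes in floxed control, 12% in Il12rb2-deleted mice and 22.3% over both genotypes. The Aldara medians of the members were 0.41 in floxed control, 1.41 in Il12rb2-deleted mice and 0.88 over both. The other medians were -1.19 and -0.27 for the deletion untreated and after Aldara, and 0.62 for the interaction. Rsad2 changed sign in Il12rb2-deleted mice, to -0.076. Depth sets the limit given to members with no count in an untreated library, such as Oas2 and Rsad2. Those counts of 0 were in Il12rb2-deleted untreated replicates 3 and 4, with 12529127 and 16511356 counts in total. The shallowest library, replicate 2 of that group (5830034 counts), had none. Replicates 3 and 4 had equal counts for 10.1% of tested genes, the most of any pair within a group, and the cause was not tested.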
